A study of Sorghum bicolor with 12 samples.

Results

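The sweet sorghum root transcriptome of 2 lines held loci that were assembled from reads but carried no gene name, and the ones described here were chosen by their level, a mean FPKM of 5 or more over the 12 libraries. Of the 34352 loci in the deposited table, 3959 (11.5%) had an empty gene name, and 91 of these (2.3%) reached the limit. Among the loci with a gene name, 7496 of 30393 (24.7%) reached it too. FPKM are fragments scaled to the length of the transcript model and to the mapped fragments of the library. The rule used the mean level over all libraries, so the levels of the 91 loci below are a description of what was chosen.

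Roma is a sweet sorghum line that is sensitive to salt, and M-81E is a line that tolerates it. Treatment of both lines started at the three-leaf stage, and NaCl was raised in steps of 50 mM every 12 h. Roots were taken after 24 h of treatment at 150 mM NaCl (Roma-salt and M-81E-salt) or from plants in nutrient solution with 0 mM NaCl (Roma-CK and M-81E-CK). Each of the 4 groups had 3 libraries, which the study calls biological replicates. No transgene or mutant allele is named for either line, and neither the labels nor the methods say how many plants made up a library.

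A locus of this kind exists because StringTie, an assembler, joins overlapping mapped reads into transcript models and numbers each locus as MSTRG, whether or not a reference gene lies there. In plants, such unannotated transcripts can be long noncoding RNAs, protein-coding genes missed by the annotation, untranslated ends of a neighbouring gene, transcripts of transposable elements or pieces of abundant structural RNAs such as rRNA. An FPKM value does not tell these kinds apart, and no kind was assigned here.

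All 91 loci carried a StringTie number and consisted only of StringTie transcript models, and 0 of them had a GO term, a KEGG entry or a description. A single transcript model made up 56 of them (61.5%), 19 had 2 models and 16 had 3 or more, up to 37 at MSTRG.16274. By comparison, 29.1% of the named loci of at least 5 FPKM and 95.1% of the 3868 unnamed loci under that limit had a single model. The table gives no coordinates. StringTie numbers ran along the chromosomes, since 89.2% of neighbouring named loci stood in the order of their SORBI identifiers, and the named loci on both sides of a member lay on the same chromosome for all 91. Read in this way, 16 members lay on chromosome 5, 14 on chromosome 10, 12 on chromosome 1, 10 on chromosome 3, 9 each on chromosomes 8 and 9, 8 on chromosome 2, 5 on chromosome 4, and 4 each on chromosomes 6 and 7. A named locus held the next number on both sides of 40 members and on at least 1 side of 77.

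The neighbours included some loci of known kind. Next to MSTRG.10703 lay a locus named mir-156, the microRNA that represses SPL transcription factors in plants, and next to MSTRG.23532 a locus named Plant_SRP, the RNA of the signal recognition particle. Of the 91 loci, 9 had an rRNA-named locus as their nearest named neighbour on at least 1 side. These were MSTRG.2088 on chromosome 1 and MSTRG.18272, MSTRG.18278, MSTRG.18288, MSTRG.18297, MSTRG.18302, MSTRG.18303, MSTRG.18307 and MSTRG.18316 on chromosome 5. Ribosomal RNA genes stand in tandem arrays, and the kit that the study describes removes most rRNA before sequencing. None of the 5 lncRNAs in the network of the study was a member, if the number in each name is its StringTie number. The study does not state this, and it could not be checked without coordinates. On that reading, the numbers of 4 of the lncRNAs belonged to unnamed loci, which averaged 0.13 to 1.29 FPKM, and the number of the other one belonged to a locus with a gene name.

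The depth of single libraries is unknown, because the table holds no read counts. The study gives reads and mapped shares per group only, with the lowest mapped share in Roma-CK. The FPKM of a library summed to 282710 to 305677 in Roma-salt, 284268 to 301374 in Roma-CK, 267572 to 271351 in M-81E-salt and 272193 to 280729 in M-81E-CK. The 34 rRNA-named loci differed widely between libraries. Their summed FPKM was 245.9, 150.3 and 228.9 in Roma-salt and 521.9, 1646 and 782.2 in Roma-CK, against 53.62, 41.84 and 822.6 in M-81E-salt and 157.8, 186.7 and 175 in M-81E-CK. M-81E-salt3 and Roma-CK2 thus stood above the others of their group, and the results below that rest on them are given with and without them. Without Roma-CK2, 86 of the 91 loci still averaged 5 FPKM or more, and 87 did without M-81E-salt3. The root label could not be checked with descriptions, since the words searched matched 1 root locus (root hair) and 2 shoot loci (photosystem), and most descriptions read hypothetical protein. Fewer cells of a type and less RNA per cell cannot be told apart in these whole-root libraries.

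The mean level of the members ranged from 5.013 to 1579 FPKM with a median of 9.07, against a median of 12.27 over the named loci of at least 5 FPKM. The mean was under 10 FPKM at 52 members, from 10 to 50 at 25, from 50 to 100 at 6, and 100 or more at the other 8, of which the highest 2 averaged 1345 and 1579 FPKM. Just inside the limit were MSTRG.4444 (5.013 FPKM), MSTRG.2598 (5.034) and MSTRG.6736 (5.039), and just outside it were MSTRG.24070 (4.995), MSTRG.25674 (4.988) and MSTRG.5562 (4.984). At 41 members all 4 groups reached a mean of 5 FPKM, at 11 members 3 groups did, and at 39 members 2 groups did. The members varied more among libraries than named loci did, with a median coefficient of variation of 47.9% against 30.7%. Their median SD within groups was close to that of named loci, 0.246 against 0.222 on the log2(FPKM + 1) scale.

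**Figure D1:**
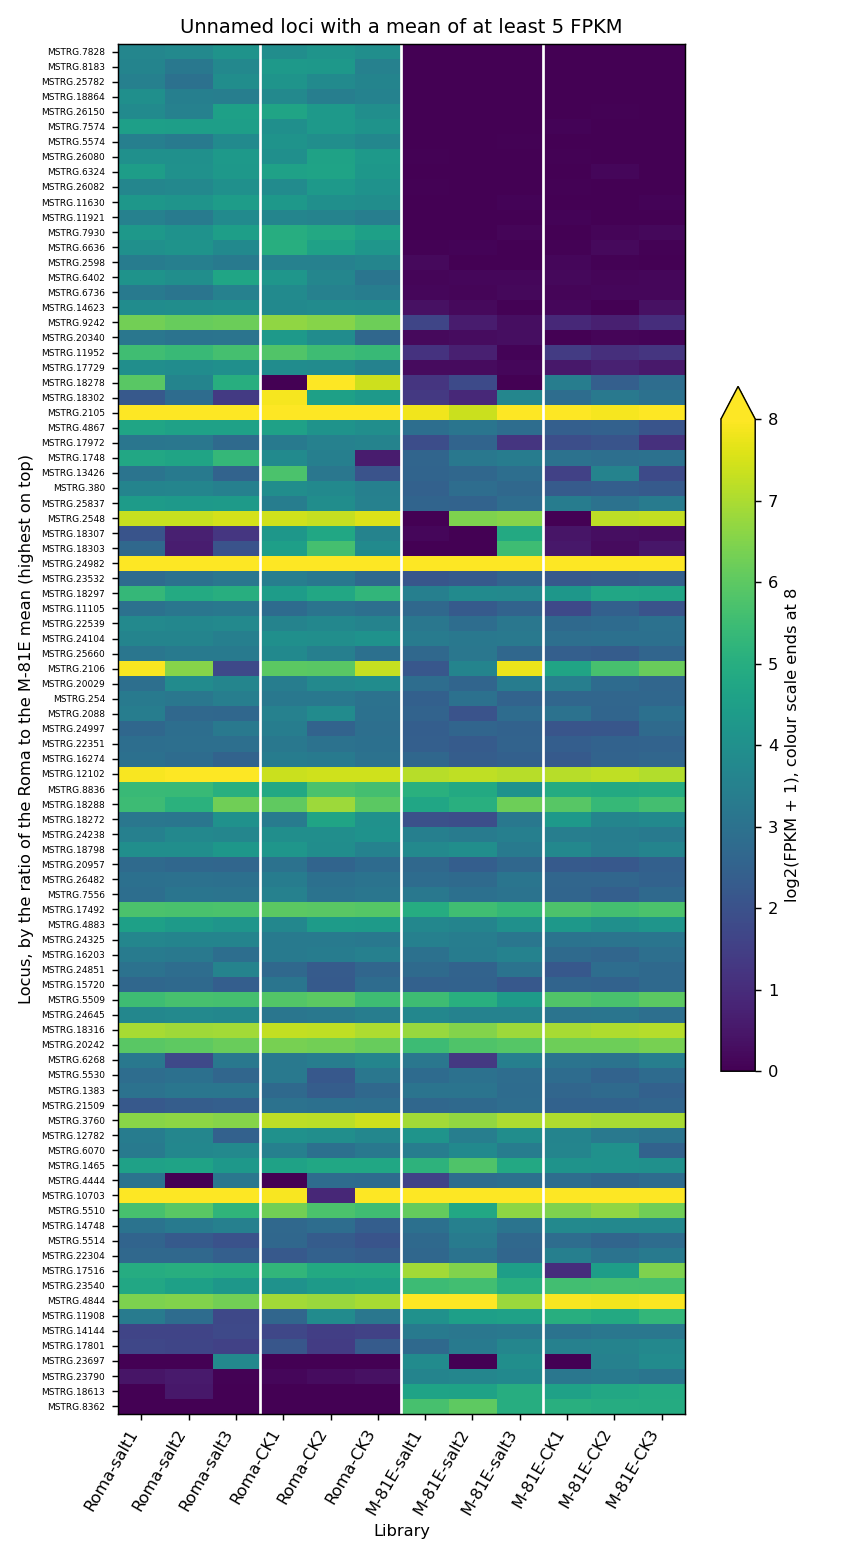
Level of each of the 91 unnamed loci (one row each) in the 12 libraries (columns), as log2(FPKM + 1), with rows ordered by the ratio of the Roma mean to the M-81E mean. The rows at the top are near 0 in the 6 M-81E libraries, the 3 at the bottom are near 0 in the 6 Roma libraries, and the colour scale ends at 8, above which the highest loci lie.

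The members together held 1.32 to 1.71% of the FPKM sum in Roma-salt and 2.08 to 4.69% in Roma-CK, against 1.05 to 1.84% in M-81E-salt and 1.15 to 1.28% in M-81E-CK. MSTRG.2105, on chromosome 1, had the highest mean over the 12 libraries, 1579 FPKM. It had 1047, 344.9 and 645.9 FPKM in Roma-salt and 2130, 8714 and 2490 FPKM in Roma-CK, against 227, 164.1 and 2241 FPKM in M-81E-salt and 375.1, 234.3 and 334.4 FPKM in M-81E-CK. Its highest libraries were Roma-CK2 among the Roma libraries and M-81E-salt3 among the M-81E libraries, the ones with the highest rRNA-named sums. Its rank rests on Roma-CK2, since its mean was 930.3 FPKM without that library, below the 1299 FPKM of MSTRG.24982.

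MSTRG.24982, on chromosome 9, had the next highest mean, 1345 FPKM. It had 1578, 1290 and 1819 FPKM in Roma-salt and 2987, 1845 and 1194 FPKM in Roma-CK, against 705.2, 996.4 and 725.9 FPKM in M-81E-salt and 939.9, 915.4 and 1141 FPKM in M-81E-CK. Every Roma library was above every M-81E library. Its named neighbours, SORBI_3009G013400 and SORBI_3009G013600, averaged 0.779 and 0.3629 FPKM, so its level was not shared by the loci beside it.

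The 8 other members with the highest means did not share a pattern. MSTRG.10703 had 343.5, 385.5 and 332 FPKM in Roma-salt and 241.5, 0.8701 and 268 FPKM in Roma-CK, against 330.4, 335.3 and 295.5 FPKM in M-81E-salt and 331.6, 349.7 and 313.6 FPKM in M-81E-CK. It was high in 11 libraries and near 0 in Roma-CK2, while the mir-156 locus next to it averaged 0.3451 FPKM. MSTRG.2548 had 161, 159.4 and 178.9 FPKM in Roma-salt and 172.1, 154.6 and 191.2 FPKM in Roma-CK, against 0, 86.88 and 93.38 FPKM in M-81E-salt and 0, 145.9 and 153.7 FPKM in M-81E-CK. The first library of each M-81E group was thus listed at 0. An isolated low library of this kind, under 10% of a group median of at least 5 FPKM, occurred at 8 members (8.79%) and at 6.63% of the named loci of at least 5 FPKM. The others were MSTRG.1748, MSTRG.17516, MSTRG.18278, MSTRG.2106, MSTRG.23697 and MSTRG.4444. An FPKM of 0 can be a failed estimate, so such values are given as listed.

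MSTRG.4844 was lower in Roma, with 84.78, 88.22 and 78.32 FPKM in Roma-salt and 118.8, 109.1 and 124 FPKM in Roma-CK, against 329.8, 469.3 and 110.2 FPKM in M-81E-salt and 242.2, 232 and 247.3 FPKM in M-81E-CK. The lines did not overlap without salt, nor under salt. MSTRG.2106, the number after MSTRG.2105, was erratic, with 239.1, 91.85 and 2.364 FPKM in Roma-salt and 62.79, 61 and 154.9 FPKM in Roma-CK, against 3.532, 11.13 and 216.9 FPKM in M-81E-salt and 24.34, 49.59 and 70.77 FPKM in M-81E-CK. MSTRG.12102, MSTRG.18316, MSTRG.3760 and MSTRG.20242 averaged 178.1, 124.3, 121.9 and 67.18 FPKM, with coefficients of variation of 28.38, 14.27, 18.42 and 17.1%.

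The steadiest members varied little among the 12 libraries. The lowest coefficients of variation were 14.27% at MSTRG.18316, 17.1% at MSTRG.20242, 17.33% at MSTRG.24325 and 17.9% at MSTRG.17492. MSTRG.18316 had 123.8, 115.9 and 118.5 FPKM in Roma-salt and 153.6, 149.7 and 127.2 FPKM in Roma-CK, against 108.2, 90.29 and 111.5 FPKM in M-81E-salt and 122.4, 132.3 and 138.2 FPKM in M-81E-CK. In each line its 3 salt libraries lay below its 3 CK libraries, with limma log2 fold changes of -0.259 in Roma (adjusted p = 0.319) and -0.343 in M-81E (adjusted p = 0.284).

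To ask how the lines differed, Roma-CK was compared with M-81E-CK and Roma-salt with M-81E-salt by limma on log2(FPKM + 1), over all loci above 0 FPKM in at least 1 library of the fit. The pseudocount of 1 makes limma's fold changes understate those of low loci. A differentially expressed locus (DEG) needed an unadjusted p under 0.05 together with group means that differed by at least 1 on the log2 scale, and Benjamini-Hochberg adjusted p-values were taken over all loci tested. With 3 libraries against 3, the two-sided exact permutation test over libraries cannot give a p below 0.1, the value of every locus whose groups did not overlap.

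Without salt, 42 of the 91 members were DEGs, 32 higher and 10 lower in Roma-CK than in M-81E-CK. Over all loci tested, 16.9% were DEGs higher and 9.05% DEGs lower in Roma-CK. An adjusted p under 0.05 was reached by 43 members that were higher and 10 that were lower, where the shares over all loci tested were 18.5% and 8.84%. Under salt, 28 members were DEGs higher in Roma-salt and 7 lower than in M-81E-salt (18.1% and 8.83% of all loci tested), and 37 higher and 8 lower passed the adjusted p (21.2% and 9.15%). Over the 12 libraries, the 6 Roma libraries lay above the 6 M-81E libraries at 36 members (16.3% of all loci) and below them at 7 (6.59%).

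These counts cannot be read as a property of the members, because a locus that is near 0 in 1 line passed the limit only through its level in the other line and had to differ. The mean was at least 5 FPKM in both lines at 49 members, in Roma alone at 33 and in M-81E alone at 9. Of the 49, 6 were DEGs higher (12.2%) and 4 DEGs lower (8.16%) in Roma-CK than in M-81E-CK, against 10.5% and 6.98% of the named loci of at least 5 FPKM. The adjusted p was passed by 14 that were higher (28.6%) and 4 that were lower (8.16%), against 23.4% and 11.7% of those named loci. Under salt, 4 were DEGs higher (8.16%) and 2 lower (4.08%) in Roma-salt, against 11% and 6.72% of the named loci. The adjusted p was passed by 10 higher (20.4%) and 3 lower (6.12%), against 25.6% and 12.4% of the named loci. The difference of these shares from those of the named loci was not tested. The 12 libraries separated the lines at 9 of the 49 that were higher (18.4%) and 2 that were lower (4.08%) in Roma, against 17.7% and 7.83% of the named loci.

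The scale of the libraries also moved with the line. Loci above 0 in all 12 libraries had higher medians in Roma, and dividing each library by its relative median (1.106 to 1.266 in Roma, 0.8229 to 0.8843 in M-81E) turned the median log2 fold change without salt over all loci tested to -0.00577, against 0.115 on the deposited scale. On the deposited scale the median over the members was 0.619 and that over the 49 was 0.37, and on the rescaled one these were 0.205 and -0.0449, so the direction over the 49 flips with the scale. The median over the named loci of at least 5 FPKM flipped too, at 0.239 on the deposited scale and -0.181 on the rescaled one, and lay below that of the 49 on both. Those named loci, unlike the 49, were not limited to loci at 5 FPKM in both lines. Under salt the medians were 0.439 over the members and 0.286 over the 49 on the deposited scale, against 0.0867 and -0.0881 after rescaling, and those over the named loci were 0.186 and -0.175. With an adjusted p under 0.05, the rescaled libraries gave 30 members higher and 13 lower without salt (9.55% and 13.7% of all loci tested), and 29 higher and 12 lower under salt (11.9% and 14.1%). Among the 49 they gave 5 higher and 6 lower in each treatment. The largest line differences, described next, far exceed this shift.

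The library-size covariate of Ballgown, the tool of the study, also separated the lines, at 21039 to 23794 in the Roma libraries and 17655 to 18416 in the M-81E libraries (summed log2(FPKM + 1) below the upper quartile), so its part and that of the line cannot be told apart. In an unmoderated linear model with this covariate, 6 members without salt and 0 under salt had an adjusted p under 0.05 (0.465% and 0.00301% of all loci tested). Of the 16 line calls of named members, 1 was kept, MSTRG.8362 without salt, and no direction changed.

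**Figure D2:**
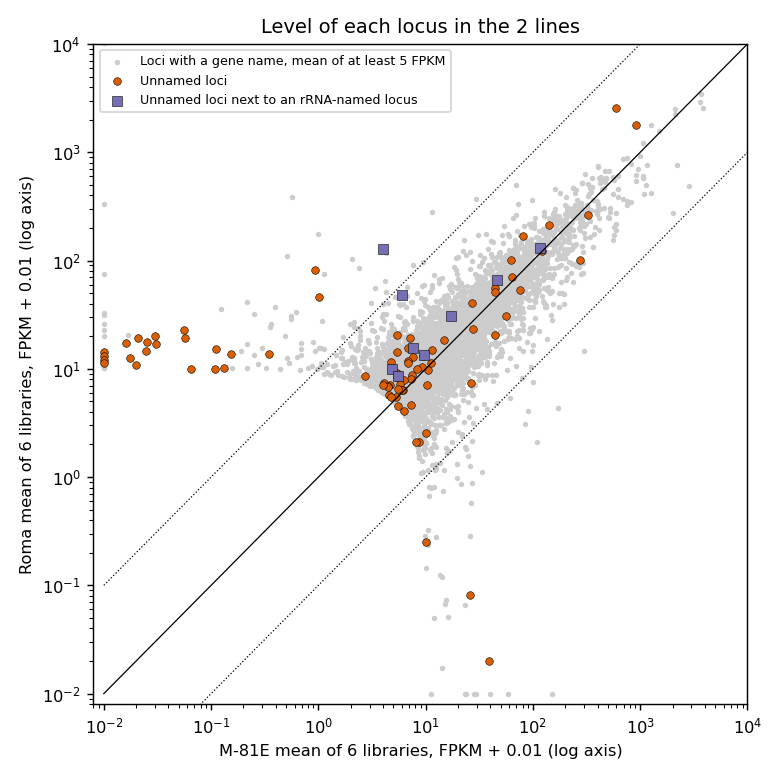
Mean FPKM over the 6 Roma libraries (vertical) against that over the 6 M-81E libraries (horizontal) for the unnamed loci and, in grey, the named loci of at least 5 FPKM, with 0.01 added and log axes. Dotted lines mark where 1 mean is 10% of the other, beyond which 23 unnamed loci lie on the Roma side and 3 on the M-81E side.

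A distinct set of members was expressed in Roma and hardly or not at all in M-81E. At 23 members (25.3%) the M-81E mean was under 10% of the Roma mean, a limit chosen after the values were seen, compared with 0.934% of the named loci of at least 5 FPKM and 33.5% of the unnamed loci under 5 FPKM. Their Roma means were 9.98 to 129 FPKM (median 14.5; the highest, at MSTRG.18278, was 54.09 FPKM without Roma-CK2) and their M-81E means 0 to 3.99 FPKM (median 0.0205). Every Roma library was above every M-81E library at 22 of the 23, the exception being MSTRG.18278, listed at 0 in Roma-CK1. The count was 23 without Roma-CK2 and 26 without M-81E-salt3, which added MSTRG.18302, MSTRG.18303 and MSTRG.18307. The 23 lay on chromosomes 2 and 10 (5 each), 9 (4), 3 and 5 (3 each), and 1, 4 and 6 (1 each). All 23 passed the limit of 5 FPKM only through Roma, so the lines had to differ. The limma p-values given for them below are a description and no test of the line difference.

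MSTRG.9242, on chromosome 2, was the highest of them apart from MSTRG.18278. It had 77.57, 69.15 and 73.05 FPKM in Roma-salt and 100.4, 93.36 and 73.88 FPKM in Roma-CK, against 2.208, 0.5312 and 0.2171 FPKM in M-81E-salt and 0.8889, 0.6417 and 1.068 FPKM in M-81E-CK. The lines were far apart in both treatments, and the p-values describe a locus that passed the limit through Roma alone. The limma log2 fold change of Roma over M-81E was 5.35 under salt (SE 0.365, adjusted p = 0.000641) and 5.59 without salt (SE 0.154, adjusted p = 0.000121). In the unmoderated model with the covariate of Ballgown it was 10.4 (adjusted p = 0.778) and 5.05 (adjusted p = 0.072). The named loci beside it, SORBI_3002G283200 and SORBI_3002G283900, averaged 1.832 and 0.07453 FPKM in Roma against 2.019 and 0.8775 FPKM in M-81E, so neither followed the line difference.

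MSTRG.11952, on chromosome 3, had 45.81, 41.44 and 49.33 FPKM in Roma-salt and 56.2, 44.84 and 40.62 FPKM in Roma-CK, against 1.252, 0.6398 and 0.05088 FPKM in M-81E-salt and 1.631, 1.131 and 1.369 FPKM in M-81E-CK. All 6 M-81E libraries were above 0, and the highest was at 1.631 FPKM. The log2 fold change was 4.88 under salt (SE 0.285, limma adjusted p = 0.00052) and 4.34 without salt (SE 0.154, limma adjusted p = 0.000195).

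MSTRG.7930, MSTRG.6636, MSTRG.6324 and MSTRG.7574 showed a similar contrast at a lower level. MSTRG.7930 had 18.04, 16.07 and 21.41 FPKM in Roma-salt and 30.73, 27.67 and 22.5 FPKM in Roma-CK, while the highest of its M-81E libraries was at 0.1315 FPKM and 3 were listed at 0. MSTRG.6636 had 15, 16.17 and 12.77 FPKM in Roma-salt and 31.07, 22.85 and 17.34 FPKM in Roma-CK, with 0.01158 to 0.1392 FPKM in M-81E. Both were lower in every Roma-salt library than in every Roma-CK library, with adjusted limma p-values of 0.172 and 0.225. MSTRG.6324 had 15.63 to 24.13 FPKM and MSTRG.7574 14.89 to 21.87 FPKM in Roma, and each was listed at 0 in 4 M-81E libraries. The limma log2 fold changes of these 4 loci were 3.92 to 4.5 under salt and 4.11 to 4.7 without salt.

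Another 4 members were listed at 0 in all 6 M-81E libraries, so no fold is given for them. In Roma, MSTRG.7828 had 11.68, 12.6 and 16.11 FPKM with salt and 14.21, 16.56 and 14.46 FPKM without. MSTRG.8183 had 11.29, 8.277 and 12.36 FPKM in Roma-salt and 18.48, 18.37 and 10.52 FPKM in Roma-CK. The other two, MSTRG.25782 and MSTRG.18864, ranged in Roma from 6.855 to 16.66 and from 9.634 to 14.79 FPKM. No member was listed at 0 in all 6 Roma libraries.

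A pair of these loci stood 2 numbers apart. MSTRG.26080 had 15.18, 15.23 and 19.28 FPKM in Roma-salt and 14.79, 23.41 and 19.18 FPKM in Roma-CK, and MSTRG.26082 had 11.72, 12.21 and 15.21 FPKM in Roma-salt and 13.67, 18.69 and 15.74 FPKM in Roma-CK. In M-81E they did not exceed 0.03406 and 0.0322 FPKM. Whether these neighbouring models share reads is not known, so they are not independent cases.

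Few of the named loci around these members reached the same limit of 10%. Among the 44 named neighbours of the 23 members, 37 had at least 1 FPKM in at least 1 line and 26 in both lines. Of the 37, 2 had an M-81E mean under 10% of the Roma mean. The share was 0.934% over the named loci of at least 5 FPKM, a set with a higher limit of level. Smaller line differences of the neighbours, in either direction, were not counted. Whether sequence differences between the lines affected the mapping of M-81E reads was not tested. Within Roma, 16 of the 23 had a salt fold change below 0 and 7 one above 0, 3 had an unadjusted limma p under 0.05 and 0 an adjusted one. Over all loci tested, 15875 of 32264 had one below 0, and 17.9% had an unadjusted limma p under 0.05. For the named loci of at least 5 FPKM these were 3798 of 7488 and 28.4%, and 4.05% passed the adjusted p.

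Fewer members showed the opposite contrast. They passed the limit of 5 FPKM only through M-81E, so their p-values do not test the line difference either. At MSTRG.8362, MSTRG.18613 and MSTRG.23790 the Roma mean was under 10% of the M-81E mean (3.3% of the members, 0.654% of the named loci of at least 5 FPKM and 23.7% of the unnamed loci under it). MSTRG.8362, on chromosome 2, had 0.01104, 0.01556 and 0.01509 FPKM in Roma-salt and 0.01768, 0 and 0 FPKM in Roma-CK, against 50.33, 63.91 and 30.36 FPKM in M-81E-salt and 31.89, 30.09 and 29.05 FPKM in M-81E-CK. Its limma log2 fold change of Roma over M-81E was -5.54 under salt (SE 0.271, adjusted p = 0.000448) and -4.96 without salt (SE 0.0867, adjusted p = 2.68e-05). The lower neighbour, SORBI_3002G175550, described as a lectin receptor kinase, ran the other way, with 3.1 FPKM in Roma and 0.06869 FPKM in M-81E.

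MSTRG.18613, on chromosome 5, was listed at 0 in 5 Roma libraries and at 0.4336 FPKM in Roma-salt2, against 23.86, 23.66 and 30.6 FPKM in M-81E-salt and 23.08, 26.7 and 28.85 FPKM in M-81E-CK. MSTRG.23790, on chromosome 8, had 0.03785 to 0.482 FPKM in Roma, against 11.11, 11.72 and 12.89 FPKM in M-81E-salt and 7.945, 8.811 and 7.653 FPKM in M-81E-CK. At the second of these loci the M-81E-salt libraries lay above the M-81E-CK libraries (limma log2 fold change 0.499, adjusted p = 0.0999). MSTRG.11908, on chromosome 3, was expressed in both lines, with 8.993, 6.121 and 2.306 FPKM in Roma-salt and 5.291, 13.45 and 7.961 FPKM in Roma-CK, against 15.53, 21.67 and 22.66 FPKM in M-81E-salt and 31.22, 28.03 and 38.43 FPKM in M-81E-CK. Its limma log2 fold change was -1.75 under salt (SE 0.427, adjusted p = 0.0303) and -1.83 without salt (SE 0.32, adjusted p = 0.012). Under salt the adjusted p was above 0.05 without M-81E-salt1 (0.0599), M-81E-salt2 (0.0875), M-81E-salt3 (0.087) or Roma-salt2 (0.0642).

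The separation of the lines over the members depended on which members were used. Over the 91 members, Pearson correlations of log2(FPKM + 1) were 0.762 to 0.985 within a group (12 pairs), 0.74 to 0.948 between the treatments of a line (18 pairs) and 0.262 to 0.558 between the lines (36 pairs). Over the 49 members of at least 5 FPKM in both lines, which the choice of members does not force apart, they were 0.676 to 0.971, 0.691 to 0.915 and 0.51 to 0.93, so the ranges overlapped. Over all loci they were 0.933 to 0.949 within a group and 0.856 to 0.935 between groups.

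Salt was compared within M-81E over the 87 members above 0 in at least 1 M-81E library. Of these, 2 were DEGs higher in M-81E-salt than in M-81E-CK and 3 were DEGs lower, where the shares over all loci tested were 3.07% and 3.5%. An adjusted p under 0.05 was reached by 0 members (0.826% of all loci tested), while 23 had an unadjusted limma p under 0.05 (15.3% of all loci tested), 10 higher and 13 lower. With 1 prior variance for all loci, limma called 2 members, and 4 with all 12 libraries in the fit. The share of all loci called under these settings is not given, so these counts describe the settings and not the members. The 3 salt libraries did not overlap the 3 CK libraries at 26 members (22.1% of all loci tested), and the median log2 fold change was -0.0016 over the members and 0.00752 over all loci tested. Of the named loci of at least 5 FPKM, 1.82% were DEGs higher, 2.66% DEGs lower, and 1.91% passed the adjusted p. An unadjusted limma p under 0.05 was reached by 25.6% of them (26.4% of the members), and 33.9% did not overlap (29.9% of the members).

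MSTRG.1465, on chromosome 1, was higher with salt in M-81E, with 35.39, 54.34 and 27.65 FPKM in M-81E-salt and 16.22, 15.96 and 15.21 FPKM in M-81E-CK. The salt libraries all exceeded the CK libraries but spread widely. The limma log2 fold change was 1.2 (SE 0.244, adjusted p = 0.112), and the log2 ratio of the means fell just under the DEG limit, to 0.997, without M-81E-salt2. MSTRG.20340 was a DEG at levels near 0, with 0.1463, 0.2126 and 0.2231 FPKM in M-81E-salt and 0, 0.07543 and 0.06544 FPKM in M-81E-CK, and it is one of the loci expressed mainly in Roma.

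Of the DEGs that were lower with salt in M-81E, 2 had an rRNA-named neighbour. MSTRG.18278 had 1.375, 2.472 and 0 FPKM in M-81E-salt and 9.571, 4.315 and 6.193 FPKM in M-81E-CK (limma adjusted p = 0.186). MSTRG.18272 had 2.958, 2.807 and 8.291 FPKM in M-81E-salt and 18.93, 11.49 and 12.95 FPKM in M-81E-CK (limma log2 fold change -1.54, SE 0.399, adjusted p = 0.165). The groups did not overlap at either locus. The remaining DEG, MSTRG.17729, was near 0 in both groups, with 0.1886, 0.1777 and 0.09087 FPKM in M-81E-salt and 0.4204, 0.6746 and 0.4544 FPKM in M-81E-CK. Without M-81E-salt3 the members held 9 DEGs, and the 4 that were added, MSTRG.18302, MSTRG.18303, MSTRG.18307 and MSTRG.2106, were each lower with salt. An adjusted p under 0.05 was then reached at 1 member, MSTRG.18302 (limma log2 fold change -1.9, adjusted p = 0.0493). The share of all loci called without M-81E-salt3 is not given beside these counts.

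In Roma, all 91 members were tested, and 1 was a DEG higher in Roma-salt than in Roma-CK and 4 were DEGs lower (5.15% and 4.44% of all loci tested). An adjusted p under 0.05 was reached by 2 members, both lower with salt (0.784% of all loci tested), and 23 had an unadjusted limma p under 0.05 (17.9% of all loci tested), 9 higher and 14 lower. The groups did not overlap at 32 members (24.6% of all loci tested). Of the named loci of at least 5 FPKM, 3.62% were DEGs higher, 4.59% DEGs lower, and 1.87% passed the adjusted p as lower. An unadjusted limma p under 0.05 was reached by 28.4% of them (25.3% of the members), and 35% did not overlap (35.2% of the members). The log2 fold change was below 0 at 59 members and above 0 at 32, with a median of -0.162, against -0.00859 over the named loci of at least 5 FPKM and 0.00255 over all loci tested. After rescaling the libraries the median over the members was -0.139.

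The members that passed the adjusted p were MSTRG.3760 and MSTRG.21509. MSTRG.3760, on chromosome 1, had 95.32, 99 and 91.5 FPKM in Roma-salt and 145.9, 143.8 and 165.2 FPKM in Roma-CK (limma log2 fold change -0.663, SE 0.104, adjusted p = 0.0493). MSTRG.21509, on chromosome 7, had 3.669, 4.116 and 4.326 FPKM in Roma-salt and 7.164, 6.788 and 6.659 FPKM in Roma-CK (limma log2 fold change -0.645, SE 0.0959, adjusted p = 0.0448). Replicates were tight at both loci, and the log2 ratios of the means did not reach 1, so neither was a DEG. Leaving out any of the 6 Roma libraries raised the adjusted p to 0.0848 to 0.153 at MSTRG.3760 and to 0.0893 to 0.137 at MSTRG.21509.

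MSTRG.1748, on chromosome 1, was the DEG that was higher with salt in Roma. It had 26.84, 24.47 and 39.33 FPKM in Roma-salt and 13.35, 10.04 and 0.536 FPKM in Roma-CK, against 5.141, 8.153 and 9.251 FPKM in M-81E-salt and 7.102, 6.613 and 6.829 FPKM in M-81E-CK. Every Roma-salt library exceeded every other library. The limma log2 fold change in Roma was 2.29 (SE 0.879, adjusted p = 0.261), and it was 1.28 (SE 0.251, adjusted p = 0.124) without Roma-CK3, the library at 0.536 FPKM. It was no longer a DEG without Roma-salt1, Roma-salt2 or Roma-salt3, where the unadjusted p exceeded 0.05 and the adjusted limma p was 0.419, 0.389 and 0.47. The difference in its salt response between the lines was 2.21 (SE 0.974, limma adjusted p = 0.327).

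The 4 DEGs that were lower with salt in Roma were MSTRG.2105, MSTRG.18302, MSTRG.18303 and MSTRG.18307, and 3 of them had an rRNA-named neighbour. They are named here after their values were seen. The values of MSTRG.2105 were given above. MSTRG.18302 had 3.725, 6.162 and 1.584 FPKM in Roma-salt and 236.2, 22.41 and 18.71 FPKM in Roma-CK, against 1.505, 0.8921 and 11.87 FPKM in M-81E-salt and 6.188, 8.49 and 6.83 FPKM in M-81E-CK. MSTRG.18303 had 5.548, 0.5457 and 3.135 FPKM in Roma-salt and 22, 48.88 and 13.17 FPKM in Roma-CK, against 0, 0 and 44.28 FPKM in M-81E-salt and 0.4399, 0.1771 and 0.4137 FPKM in M-81E-CK. MSTRG.18307 had 3.183, 0.6266 and 1.425 FPKM in Roma-salt and 17.8, 26.32 and 10.92 FPKM in Roma-CK, against 0.09674, 0 and 28.16 FPKM in M-81E-salt and 0.3764, 0.2247 and 0.1984 FPKM in M-81E-CK. In Roma the groups did not overlap at any of the 4 loci, and in M-81E the highest library at each was M-81E-salt3.

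The limma log2 fold changes of these loci in Roma were -2.54 at MSTRG.2105 (SE 0.726, adjusted p = 0.153), -3.43 at MSTRG.18302 (SE 1.04, adjusted p = 0.172), -2.87 at MSTRG.18303 (SE 0.688, adjusted p = 0.108) and -2.85 at MSTRG.18307 (SE 0.45, adjusted p = 0.0511). Without Roma-CK2, the library with the highest rRNA-named sum, they were -1.9, -3.95, -2.38 and -2.56, and all 4 remained DEGs. MSTRG.18302 rests more on Roma-CK1, at 236.2 FPKM, without which its log2 fold change was -2.27 (SE 0.458, limma adjusted p = 0.112) and it remained a DEG. MSTRG.2105 was no longer a DEG without Roma-salt2 (log2 fold change -2.12, limma adjusted p = 0.33). MSTRG.18302 was no longer one without Roma-salt3 (log2 fold change -3.04, limma adjusted p = 0.362). In M-81E, the log2 fold changes of MSTRG.2105, MSTRG.18303 and MSTRG.18307 were 0.503, 1.41 and 1.33 with all libraries and -0.674, -0.42 and -0.272 without M-81E-salt3, so their direction there rests on that library.

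**Figure D3:**
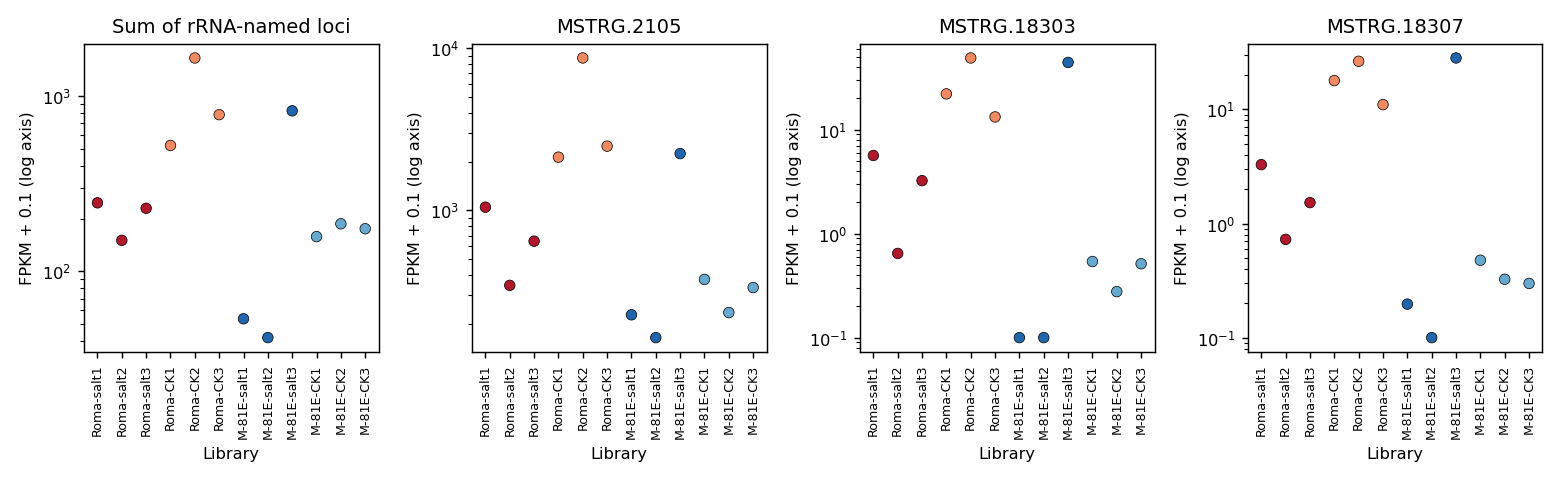
Summed FPKM of the 34 rRNA-named loci and FPKM of MSTRG.2105, MSTRG.18303 and MSTRG.18307 in each library, with 0.1 added and log axes. The Roma-CK libraries and M-81E-salt3 are the 4 highest libraries in each panel.

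MSTRG.2105, MSTRG.18302, MSTRG.18303 and MSTRG.18307 ranked the libraries much as the rRNA-named sum did. They were picked for being lower with salt in Roma, as that sum was, so a high rank correlation is partly forced. As a description, Spearman's rho with the sum over 12 libraries was 0.93 at MSTRG.2105, 0.923 at MSTRG.18307, 0.921 at MSTRG.18303 and 0.783 at MSTRG.18302. The highest values among the other members were 0.839 at MSTRG.18288, beside an rRNA-named locus, and 0.79 at MSTRG.6268, which was not. The 9 members with an rRNA-named neighbour had values of 0.294 to 0.923 (median 0.692), and the other 82 had values of -0.68 to 0.93 (median 0.367). The points share libraries and their scaling. Among the 9, 8 had a log2 fold change below 0 with salt in Roma, as did the rRNA-named sum. The part of rRNA removal or of reads from rRNA copies in these differences was not tested.

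Not every member beside an rRNA-named locus behaved in this way. MSTRG.18316 was the steadiest member of all. MSTRG.18297 had 39.36, 28.76 and 31.29 FPKM in Roma-salt and 20.22, 26.61 and 37.49 FPKM in Roma-CK, against 9.849, 13.26 and 12.55 FPKM in M-81E-salt and 17.69, 25.83 and 24.52 FPKM in M-81E-CK. Every M-81E-salt library lay below every M-81E-CK library (limma log2 fold change -0.87, SE 0.184, adjusted p = 0.121), and Roma-salt exceeded M-81E-salt by 1.4 on the log2 scale (SE 0.164, limma adjusted p = 0.00294). MSTRG.18278 had 61.37, 11.16 and 31.69 FPKM in Roma-salt and 0, 502.1 and 166.2 FPKM in Roma-CK, the widest range within a group of these 9 loci.

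**Figure D4:**
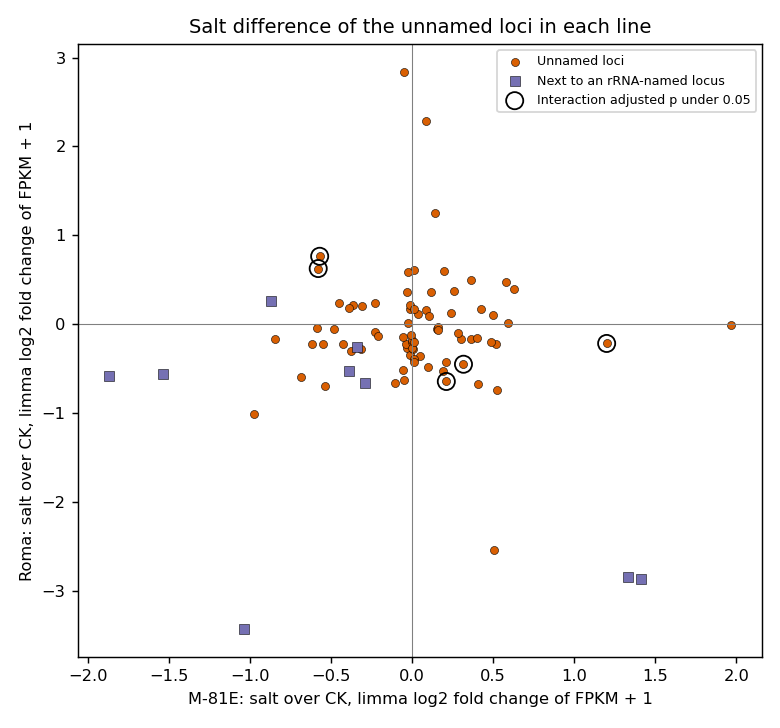
Limma log2 fold change of salt over CK on the log2(FPKM + 1) scale in Roma (vertical) and in M-81E (horizontal) for the 87 members tested in both lines, with squares for those beside an rRNA-named locus and rings for those whose response differed between the lines. Most points lie within 1 of 0 in both lines, 4 lie below -2 in Roma, and the ringed loci lie in the quadrants where the lines have opposite signs.

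To ask whether Roma and M-81E responded differently to salt, limma was fitted to all 4 groups together, and the response of Roma minus that of M-81E was tested (the interaction). An adjusted p under 0.05 was reached by 5 members, 2 with a higher and 3 with a lower response in Roma (1.01% and 0.795% of all loci tested, 1.81% together). Of the named loci of at least 5 FPKM, 2.88% reached it. The 5 had means of at least 5 FPKM in both lines, and at each the estimated response had opposite signs in the 2 lines.

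MSTRG.24104, on chromosome 8, had 11.13, 11.2 and 10.05 FPKM in Roma-salt and 14.89, 14.64 and 15.82 FPKM in Roma-CK, against 8.982, 8.184 and 8.502 FPKM in M-81E-salt and 6.543, 6.737 and 6.734 FPKM in M-81E-CK. Salt libraries lay below CK libraries in Roma and above them in M-81E, with no overlap in either line. The interaction was -0.767 on the log2 scale (SE 0.096, limma adjusted p = 0.00728). MSTRG.21509 followed the same course, with 5.404, 5.628 and 6.22 FPKM in M-81E-salt and 4.695, 4.679 and 5.116 FPKM in M-81E-CK beside the Roma values given above, and an interaction of -0.856 (SE 0.115, limma adjusted p = 0.00904).

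MSTRG.25837, on chromosome 9, ran in the other direction. It had 20.03, 19.09 and 19.73 FPKM in Roma-salt and 9.428, 14.03 and 10.41 FPKM in Roma-CK, against 4.937, 4.902 and 6.203 FPKM in M-81E-salt and 9.159, 7.095 and 9.085 FPKM in M-81E-CK. Salt libraries lay above CK libraries in Roma and below them in M-81E, and the interaction was 1.34 (SE 0.21, limma adjusted p = 0.0176). Under salt, Roma exceeded M-81E by 1.71 on the log2 scale (SE 0.106, limma adjusted p = 0.000566). Leaving out any 1 library kept the adjusted p of the interaction at this locus, MSTRG.24104 and MSTRG.21509 under 0.05, with highest values of 0.0471, 0.0225 and 0.0287. In the unmoderated model with the covariate of Ballgown the adjusted p was 0.0606 at MSTRG.25837, which ends the call there, 0.00898 at MSTRG.24104 and 0.0154 at MSTRG.21509.

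MSTRG.14748, on chromosome 4, had 7.238, 8.801 and 10.31 FPKM in Roma-salt and 5.526, 6.258 and 4.249 FPKM in Roma-CK, against 6.786, 10.12 and 7.418 FPKM in M-81E-salt and 12.73, 12.23 and 12.43 FPKM in M-81E-CK. Its interaction was 1.21 (SE 0.238, limma adjusted p = 0.0388). The lines differed without salt, where the log2 fold change of Roma-CK over M-81E-CK was -1.1 (SE 0.137, limma adjusted p = 0.00416), and their ranges overlapped under salt. MSTRG.1465 had 22.76, 23.98 and 18.42 FPKM in Roma-salt and 23.51, 25.91 and 26.46 FPKM in Roma-CK, beside the M-81E values given above, and an interaction of -1.42 (SE 0.288, limma adjusted p = 0.0424). Its Roma groups overlapped, and its limma log2 fold change in Roma was -0.108 to -0.29 with 1 Roma library left out. The adjusted p was 0.05 or more for 9 of the 12 libraries left out at MSTRG.14748 (up to 0.0891) and for 10 of 12 at MSTRG.1465 (up to 0.0891). With the covariate of Ballgown it was 0.0975 and 0.095, and on rescaled libraries it was 0.0629 at MSTRG.1465.

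**Figure D5:**
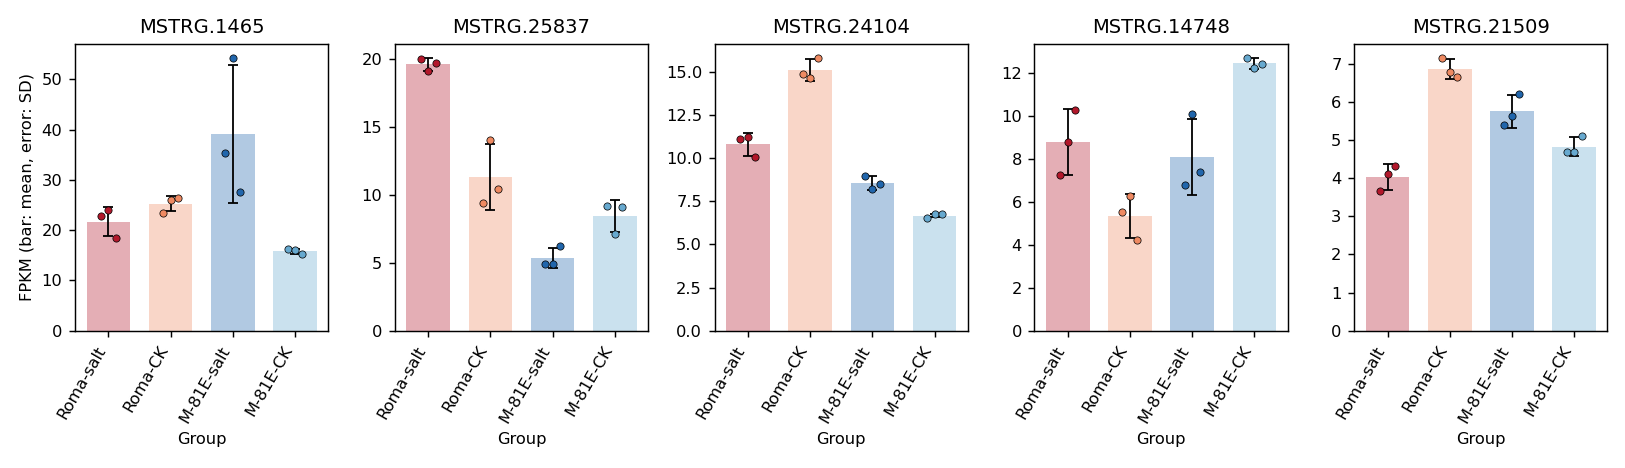
FPKM of the 5 members whose salt response differed between the lines, with a bar for the mean of 3 libraries, an error bar for the SD and a point for each library in Roma-salt, Roma-CK, M-81E-salt and M-81E-CK. MSTRG.25837 and MSTRG.14748 are higher with salt in Roma and lower with salt in M-81E, and the means of the other 3 show the reverse, with overlapping Roma groups at MSTRG.1465.

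The interaction passed the adjusted p at 0 of the 10 named neighbours of these 5 loci in limma, where the adjusted p was 0.349 to 0.96. Some estimates were as large as those of the members and had the same sign, with wide errors. SORBI_3004G064500, next to MSTRG.14748, had 4.11 (SE 1.89), and SORBI_3007G011000, next to MSTRG.21509, had -0.891 (SE 1.1), so these values do not settle whether the neighbours shared the response.

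Some members separated salt from CK libraries without passing the adjusted p. MSTRG.24645, named here after its values were seen, had 12.14, 12.49 and 12.12 FPKM in Roma-salt and 7.897, 8.19 and 9.582 FPKM in Roma-CK, against 12.04, 10.79 and 10.8 FPKM in M-81E-salt and 7.436, 7.586 and 6.533 FPKM in M-81E-CK. No salt library overlapped a CK library in either line. The limma log2 fold changes were 0.476 in Roma (SE 0.0947, adjusted p = 0.0767) and 0.578 in M-81E (SE 0.0952, adjusted p = 0.0763). MSTRG.12102, the fifth member by mean level, had 240.6, 255.1 and 279.1 FPKM in Roma-salt and 163.7, 171 and 171.4 FPKM in Roma-CK, against 138.8, 150.8 and 139.7 FPKM in M-81E-salt and 141.5, 150 and 135.1 FPKM in M-81E-CK. Its salt and CK libraries separated in Roma (log2 fold change 0.609, SE 0.117, limma adjusted p = 0.0728) and overlapped in M-81E, and the interaction was 0.6 (SE 0.137, limma adjusted p = 0.0644).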

How the data were processed

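Root RNA of 12 libraries was sequenced, 3 each of Roma-salt, Roma-CK, M-81E-salt and M-81E-CK, and the titles of the samples gave each library's group and replicate number. The study describes ribosomal RNA depletion and strand-specific paired libraries, whereas the sample labels name a kit that the study gives for its small RNA libraries. Per the labels and the study, the authors trimmed reads with cutadapt, mapped them with Bowtie2 and TopHat2, assembled loci with StringTie and deposited FPKM per locus. The versions and the genome build are not given in the sources used here. An FPKM is already divided by transcript length and mapped fragments, so the depth of each library is unknown and no counting interval or floor was computed. All 12 columns matched a sample by name, 0 were left unmatched and 0 pairs of libraries were identical.

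Members were the loci with an empty gene name that averaged 5 FPKM or more. The members and lists were chosen with earlier results of these data known. Nearest named loci came from the order of StringTie numbers. The RefSeq gene table at hand matched 0 members, so no coordinates or sequences are given.

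Comparisons were fitted on log2(FPKM + 1) by limma 3.58.1 (R 4.3.3), whose moderated variances followed a trend with the mean, over all loci above 0 FPKM in at least 1 library of the fit (all loci for the interaction of line and treatment over 12 libraries). The study used Ballgown, and its thresholds were kept (unadjusted p under 0.05, log2 ratio of means of at least 1 in size). The fits were tested on simulated data. No set test was run. P-values set a difference between groups against the spread of libraries within groups, pooled over the groups of the fit and moderated by limma. They rest on 3 libraries a group. Other steps used Python 3.11.15 (pandas 2.3.3, numpy 2.4.6, matplotlib 3.10.9, scipy 1.17.1).

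Named were the 10 members with the highest mean, the 4 steadiest, up to 4 listed at 0 throughout a line, up to 4 for the interaction, the loci at the limit and, per comparison and direction, up to 4 with the largest fold change among those that passed the adjusted p without overlap (DEGs where fewer than 2 passed). Members outside this rule were named after their values were seen. Alternatives were a pseudocount of 0.1, testing only loci that averaged 1 FPKM or more, rescaling libraries to equal medians, 1 prior variance, an unmoderated model with the covariate of Ballgown, all 12 libraries in 1 fit, the fold threshold on limma's scale, a replicate block, members with at least 5 FPKM in each group and leaving out each library.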

Additional observations from a re-analysis of the deposited data

Results flagged for a closer look

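The salt response differed between the lines at 5 members, by the interaction term of a limma fit to all 4 groups (adjusted p under 0.05). The share was 1.81% of all loci tested and 2.88% of the named loci of at least 5 FPKM. The response of Roma minus that of M-81E was -0.767 on the log2 scale at MSTRG.24104 (adjusted p = 0.00728) and -0.856 at MSTRG.21509 (adjusted p = 0.00904). It was 1.34 at MSTRG.25837 (adjusted p = 0.0176), 1.21 at MSTRG.14748 (adjusted p = 0.0388) and -1.42 at MSTRG.1465 (adjusted p = 0.0424). The call was lost for 9 of 12 libraries left out at MSTRG.14748 and for 10 of 12 at MSTRG.1465. With the covariate of Ballgown it was kept only at MSTRG.24104 and MSTRG.21509. With 3 libraries a group, single libraries were not tested for standing apart.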

How the results depend on the processing

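Salt in M-81E gave 5 DEGs among the members, and 3 over loci that averaged 1 FPKM or more, 3 with the fold threshold on limma's scale and 1 among members with at least 5 FPKM in each group. The 0 members with an adjusted p under 0.05 became 2 with 1 prior variance and 4 with all 12 libraries in 1 fit. Salt in Roma gave 5 DEGs, and 3 with the covariate of Ballgown and 2 among members with at least 5 FPKM in each group. Its 2 adjusted calls became 1 with a pseudocount of 0.1, 4 over loci of at least 1 FPKM, 6 with 1 prior variance, 0 with the covariate of Ballgown, 11 with all 12 libraries and 1 among members with at least 5 FPKM in each group. The line without salt gave 42 DEGs and 53 adjusted calls, and 6 and 14 among members with at least 5 FPKM in each group, and 6 adjusted calls with the covariate of Ballgown. The line under salt gave 35 DEGs and 45 adjusted calls, 5 and 11 in each-group members, and 15 and 0 with the covariate of Ballgown. The interaction gave 5 calls and 3 with that covariate, of which 2, MSTRG.24104 and MSTRG.21509, were among the 5. Leaving out each library gave 5 to 9 DEGs and 0 to 1 adjusted calls for salt in M-81E, 4 to 6 and 0 to 0 for salt in Roma, 40 to 44 and 44 to 52 for the line without salt, 33 to 41 and 35 to 43 for the line under salt, and 3 to 6 calls for the interaction. Where no share over all loci is given for an alternative, its count shows only how the setting moved the calls among the members. Over 29 pairs of a named member and a comparison, 400 alternatives were computed, of which 335 kept direction and side of the threshold, 64 lost the call, 1 gained it and 0 changed direction. At least 1 alternative ended the call at 20 of the 29 pairs. Salt DEGs that never passed the adjusted p are among the 29 and count as kept while they stay above it. The 29 also hold 16 line comparisons, most of them at loci that passed the limit of 5 FPKM through 1 line alone. Those loci had to differ between the lines, so their kept calls are no support for a line difference.

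The deviations of the 12 pairs of same-numbered libraries from their group means correlated at -0.0811 to 0.0333, and 2 of 12 libraries correlated best with their own number. The labels do not say whether such libraries shared a batch, and these values cannot show that they did not. With the replicate number as a block, the line without salt gave 41 DEGs, salt in Roma 0 adjusted calls and the interaction 2 calls, at MSTRG.24104 and MSTRG.21509 (adjusted p = 0.0583 at MSTRG.25837). As alternatives chosen after seeing the data, means were taken without Roma-CK2 or M-81E-salt3 and correlations over the 49 members of at least 5 FPKM in both lines. Fold changes of low loci are held down by the pseudocount, and some FPKM listed at 0 may be failed estimates. Counting error could not be estimated without the depth of each library.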

Other observations

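MSTRG.5509 and MSTRG.5510, on chromosome 10, hold consecutive numbers and were named here after their values were seen. MSTRG.5509 had 44.9, 50.19 and 49.15 FPKM in Roma-salt and 56.59, 62.27 and 44.85 FPKM in Roma-CK, against 45.19, 32.41 and 20.03 FPKM in M-81E-salt and 56.27, 50.86 and 62.44 FPKM in M-81E-CK. MSTRG.5510 had 50.31, 61.33 and 36.99 FPKM in Roma-salt and 76.83, 52.62 and 45.51 FPKM in Roma-CK, against 67.47, 26.73 and 97.8 FPKM in M-81E-salt and 86.31, 99.88 and 76.05 FPKM in M-81E-CK. In M-81E-salt3 the first was at its lowest value of the 12 libraries while the second was near its highest.

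MSTRG.23697 was listed at 0 or near 0 in 5 Roma libraries and at 12.56 FPKM in Roma-salt3, and it was listed at 0 in M-81E-salt2 and M-81E-CK1 and at 10.44 to 14.42 FPKM in the other M-81E libraries. MSTRG.17516 had 27.15 to 37.45 FPKM in Roma, against 118.5, 88.57 and 21.6 FPKM in M-81E-salt and 1.07, 20.94 and 87.01 FPKM in M-81E-CK, so its replicates spread widely in M-81E and were close in Roma.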
